A study of Mus musculus with 12 samples.

Results

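Contractile myofibroblast genes were followed across 12 arrays of mouse fibroblasts. The set held 10 genes known as contractile targets of SRF, which were Srf itself, the smooth muscle actins Acta2 and Actg2, the actin-binding proteins Tagln, Cnn1, Cnn2 and Cald1, the tropomyosins Tpm1 and Tpm2, and the regulatory myosin light chain Myl9. All 10 had a probe set among the 16475 tested, 1 for each gene. The rule for the set uses no measured value. The set and the lists of other genes beside it were nevertheless chosen with earlier results of these data known.

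The cells were NIH 3T3, an immortalized mouse embryo fibroblast line. NIH 3T3-RheoSwitch-Ier2 cells, labelled Klon11, are 1 clone of this line that carries pNEBR-R1, from which the receptor and activator of the RheoSwitch system are made, and pNEBR-Ier2-hygro, from which mouse IER2 is made when the ligand RSL-1 binds the receptor. IER2 is an immediate-early protein found in the cytoplasm and the nucleus. Inducible cells of this clone and parental NIH 3T3 cells were each given DMSO, the solvent, or 200 nM RSL-1 (RSL) for 24 h, with 3 arrays in each of the 4 groups. The design text names both plasmids for the inducible cells and neither for the parental cells. The growth protocol nevertheless lists one medium, with the selection drugs G418 and hygromycin, for every sample, and cells without resistance would not be expected to grow in it, so whether parental cells were kept in these drugs or carry a resistance plasmid is not settled by the labels. Only 1 clone was put on arrays, so in each comparison of inducible with parental cells the clone, its plasmids and its selection cannot be told apart.

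SRF is a transcription factor that binds the CArG box, a short run of A and T bases held between a pair of C and a pair of G. It acts with 2 kinds of partner. Myocardin-related factors, which monomeric actin holds outside the nucleus, turn on genes of actin, myosin and their binding proteins, while ternary complex factors of the ELK type turn on immediate-early genes after serum. Fibroblasts that gain contractile stress fibres with alpha smooth muscle actin are called myofibroblasts, and smooth muscle cells use many of the same genes at high level.

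Values are log2 signals after RMA background correction and quantile normalization by the authors. Array medians lay between 7.03 and 7.06, and first quartiles between 6.23 and 6.30. Arrays of one group correlated at r of 0.998 to 0.999 across probe sets. Of 11 fibroblast markers, 10 were above the array median on every array, Lum being the exception. Of 9 defining smooth muscle markers, Myh11, Myocd and Kcnmb1 were below the first quartile on every array, and Smtn was above the median on all of them. The Ier2 probe set read lower with RSL in the inducible cells (8.55 against 9.02, limma adjusted p = 4.64e-05) and gave 8.75 against 8.58 in the parental cells (adjusted p = 0.366). Whether its probes match the Ier2 sequence of the plasmid was not tested.

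Promoters of 8 of the 10 genes were held by the RefSeq tables used here (build GRCm38.p6), and those of Tagln and Actg2 were not. Windows ran from 250 bases before to 50 bases after each transcription start, on both strands, with 2 windows for Cald1. A CArG box without a mismatch stood in the windows of 3 genes, Srf, Cnn2 and Myl9. Acta2, Tpm1 and Cald1 held matches with 1 mismatch and no exact one, and Cnn1 and Tpm2 held neither. Of all 32851 windows in the tables, 1.63% held an exact match and 19.9% a match with 1 mismatch. Srf held 2 exact matches, 82 and 62 bases before its start, as 0.0183% of windows did with 2 or more. Cnn2 held its match 56 bases and Myl9 161 bases before the start. The Acta2 matches with 1 mismatch lay 84 and 34 bases before the start, and that of Tpm1 nearest its start lay 80 bases before it. The last 170 bases before the start are given for the 5 genes whose levels or matches recur in the results, 5′ to 3′ on the strand of the gene, with every CArG match, exact or with 1 mismatch, in capitals. They are Acta2 at chr19:34255374-34255543 on the minus strand, Cnn2 at chr10:79988430-79988599 on the plus strand, Myl9 at chr2:156775294-156775463 on the plus strand, Tpm1 at chr9:67049214-67049383 on the minus strand and Srf at chr17:46556163-46556332 on the minus strand.
Acta2: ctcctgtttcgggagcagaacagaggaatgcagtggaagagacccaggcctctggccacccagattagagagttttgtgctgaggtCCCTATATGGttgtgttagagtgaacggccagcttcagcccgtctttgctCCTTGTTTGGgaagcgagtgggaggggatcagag
Cnn2: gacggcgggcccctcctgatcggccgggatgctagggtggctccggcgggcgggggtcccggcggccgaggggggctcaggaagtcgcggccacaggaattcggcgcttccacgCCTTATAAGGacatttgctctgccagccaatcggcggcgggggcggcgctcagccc
Myl9: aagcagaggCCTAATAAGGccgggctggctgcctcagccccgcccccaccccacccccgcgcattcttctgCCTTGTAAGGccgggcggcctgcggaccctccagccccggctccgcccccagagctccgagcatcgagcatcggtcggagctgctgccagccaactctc
Tpm1: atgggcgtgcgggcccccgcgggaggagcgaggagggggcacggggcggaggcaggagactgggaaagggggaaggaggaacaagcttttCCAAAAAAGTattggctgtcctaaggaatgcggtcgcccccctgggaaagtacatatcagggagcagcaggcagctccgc
Srf: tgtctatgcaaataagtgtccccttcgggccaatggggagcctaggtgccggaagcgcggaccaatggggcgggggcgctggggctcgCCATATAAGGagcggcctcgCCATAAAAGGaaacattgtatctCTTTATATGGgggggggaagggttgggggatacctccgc
The Srf stretch holds the densest run of matches, with 3 in capitals. The third of them, 39 bases before the start, has 1 mismatch and overlaps a TATAAA match, a motif found in 13.6% of all windows. CATTCC, the core that TEAD factors bind, was found 146 bases before the start of Acta2, 56 bases before that of Tpm1 and 153 bases before that of Cald1, and in 14.7% of all windows. These are matches of letters, and binding was not measured.

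**Figure D1:**
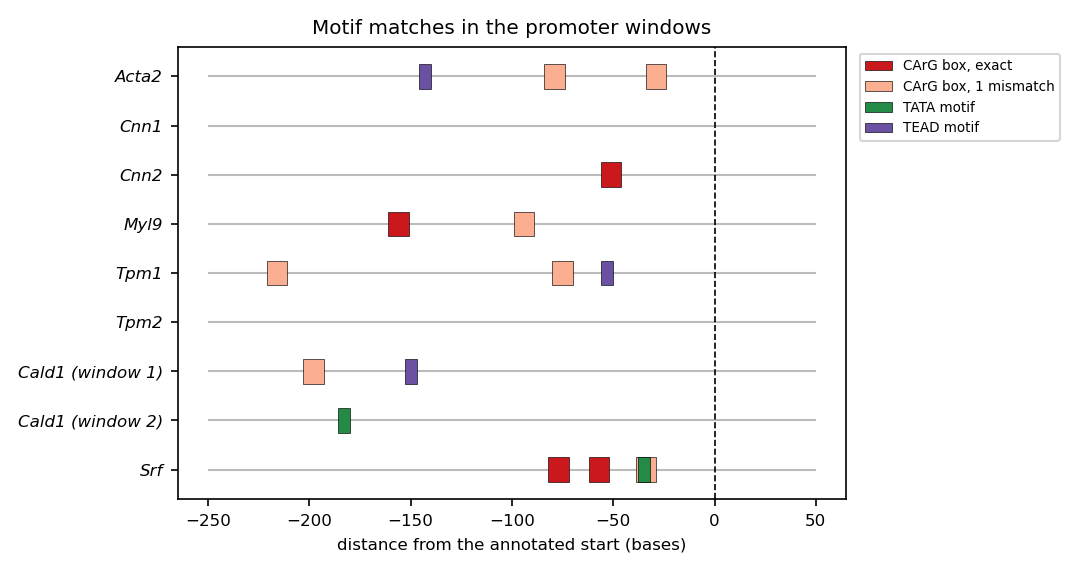
Positions of exact CArG matches, CArG matches with 1 mismatch, TATAAA and CATTCC in the promoter windows of the contractile genes, as bases from the transcription start. Each row is a window. Srf has 2 exact CArG matches, while the rows of Cnn1, Tpm2 and window 2 of Cald1 have no CArG match.

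In cells without ligand, the inducible clone and the parental line differed in the level of most contractile genes, but not all in one direction. At an adjusted p under 0.05 in limma over all probe sets, 4 of the 10 genes were higher in the inducible cells (Acta2, Tagln, Actg2, Cald1) and 2 were lower (Cnn2, Srf), while Cnn1, Myl9, Tpm1 and Tpm2 did not pass. Of all probe sets, 29.7% were called in this comparison, 15.2% as higher and 14.5% as lower. Among the 9885 probe sets above the lowest 40% by mean, where 8 of the 10 genes lie and Cnn1 and Myl9 do not, the share called was 44.5%. For 7 of the 10 genes the inducible and parental arrays did not overlap, against 40.2% of all probe sets. The median log2 difference of the 10 was 0.05, beside -0.01 over all probe sets, and the median size was 0.177 beside 0.0592. Fewer cells that express a gene and less RNA per cell cannot be told apart in these bulk samples.

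With RSL in both lines, 5 genes were higher in the inducible cells, the same 4 and Tpm1, and the same 2 were lower. Here 34.2% of all probe sets were called, 17.5% as higher and 16.8% as lower, and 49% of those above the lowest 40%. For 7 of the 10 genes the arrays did not overlap, beside 44.5% of all probe sets. The median log2 difference was 0.15, beside -0.02 over all. No array is shared between the comparison with DMSO and that with RSL.

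**Figure D2:**
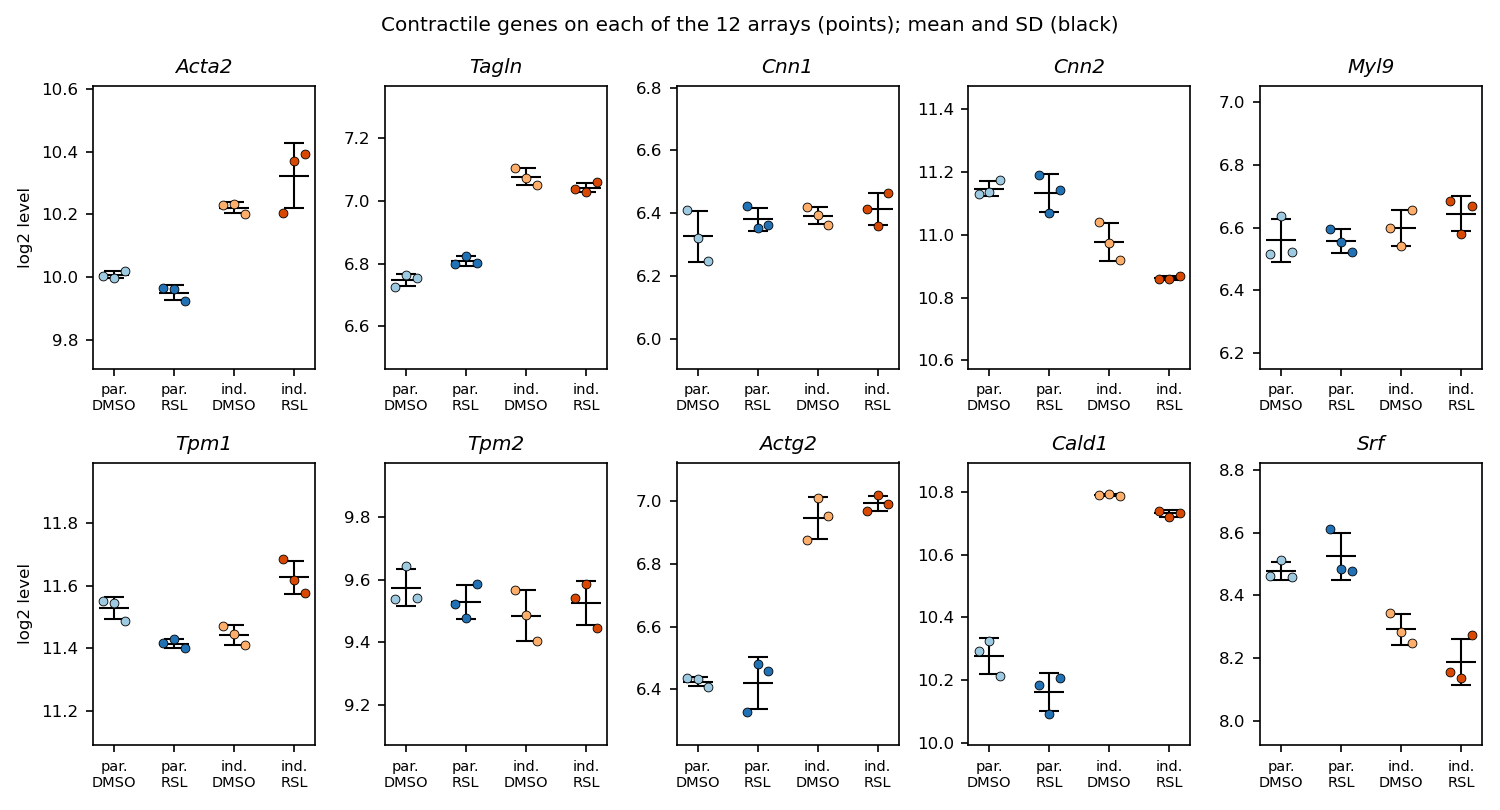
Log2 signal of each contractile gene on each of the 12 arrays, by group, with points for arrays and bars for the mean and SD of 3 arrays. The inducible points of Acta2, Tagln, Actg2 and Cald1 lie above all parental points, and those of Cnn2 and Srf below.

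Srf, the factor itself, was lower in the inducible cells. With DMSO its log2 signal was 8.35, 8.28 and 8.25 on the inducible arrays and 8.46, 8.51 and 8.46 on the parental ones. With RSL it was 8.16, 8.14 and 8.27 against 8.61, 8.49 and 8.48. Every inducible array was below every parental array. The log2 difference was -0.19 with DMSO (95% interval -0.28 to -0.09, adjusted p = 0.00386), or 1.14-fold lower. With RSL it was -0.34 (-0.43 to -0.24, adjusted p = 1.63e-05), or 1.26-fold lower. The promoter of Srf, printed above, holds more CArG matches than any other window in the set, and a tie of these to its level was not tested.

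Acta2 encodes alpha smooth muscle actin, the usual marker of the myofibroblast state. With DMSO its log2 signal was 10.23, 10.23 and 10.20 on the inducible arrays and 10.00, 10.00 and 10.02 on the parental arrays. With RSL it was 10.20, 10.37 and 10.39 against 9.97, 9.96 and 9.92. The lines did not overlap, and the inducible RSL arrays were the most spread of the 4 groups (SD 0.103, n = 3). The difference was 0.21 with DMSO (0.13 to 0.30, adjusted p = 0.00078), a fold of 1.16, and 0.37 with RSL (0.28 to 0.46, adjusted p = 2.79e-06), a fold of 1.29. Acta2 stood at the 92.3 to 95.1 percentile of its arrays, so the gene was well above the dim probe sets in parental cells too.

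Actg2 encodes gamma smooth muscle actin, the enteric form. Its inducible arrays read 6.88, 7.01 and 6.95 with DMSO and 6.97, 7.02 and 6.99 with RSL. The parental arrays read 6.43, 6.43 and 6.41 with DMSO and 6.33, 6.48 and 6.46 with RSL. The signal was in the lower part of each array in both lines, at the 27.4 to 49.6 percentile, and the lines did not overlap. The log2 difference was 0.52 with DMSO (0.43 to 0.61, adjusted p = 8.59e-08), a fold of 1.44. It was 0.57 with RSL (0.48 to 0.66, adjusted p = 2.59e-08), a fold of 1.49. Actins are close relatives in sequence, and reads of one actin by the probes of another could not be checked because probe sequences were not used here.

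Of the other actins none passed. Actb, the cytoplasmic beta actin, differed by 0.04 with DMSO (adjusted p = 0.736), the skeletal actin Acta1 by 0.10 (95% interval 0.00 to 0.20, adjusted p = 0.118) and the cardiac actin Actc1 by 0.01 (adjusted p = 0.841). The inducible DMSO arrays of Acta1 were all above the parental ones. None of these 3 passed in any of the 5 comparisons, and 1 of them passed with DMSO when arrays were weighted.

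Cald1 encodes caldesmon, which binds actin and tropomyosin and holds back myosin. Its inducible arrays were tightly grouped, with 10.79 on all 3 DMSO arrays and 10.74, 10.72 and 10.73 on the RSL arrays. Parental arrays read 10.29, 10.32 and 10.21 with DMSO and 10.19, 10.09 and 10.21 with RSL. Inducible cells were thus clear of parental cells in both conditions. The log2 difference was 0.51 with DMSO (0.44 to 0.59, adjusted p = 2.12e-08), a fold of 1.43, and 0.57 with RSL (0.49 to 0.65, adjusted p = 5.25e-09), a fold of 1.48.

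Tagln encodes transgelin, or SM22, an actin cross-linker long used as a marker of smooth muscle and as a model target of SRF. Its inducible arrays read 7.11, 7.07 and 7.05 with DMSO and 7.04, 7.03 and 7.06 with RSL. Its parental arrays read 6.73, 6.76 and 6.75 with DMSO and 6.80, 6.82 and 6.80 with RSL. The spread within groups was at most 0.0274 (SD, n = 3), and the lines did not overlap. The log2 difference was 0.33 with DMSO (0.26 to 0.39, adjusted p = 3.42e-07), a fold of 1.26, and 0.23 with RSL (0.17 to 0.30, adjusted p = 1.27e-05), a fold of 1.18.

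The calponins, which bind actin and damp myosin activity, split. Cnn2, the form found outside muscle, was lower in inducible cells, with 11.04, 10.97 and 10.92 against 11.13, 11.14 and 11.17 with DMSO. With RSL it read 10.86, 10.86 and 10.87 against 11.19, 11.07 and 11.14. The inducible arrays were below the parental arrays in both conditions. Its log2 difference was -0.17 with DMSO (-0.25 to -0.09, adjusted p = 0.00233), or 1.12-fold lower, and -0.27 with RSL (-0.35 to -0.19, adjusted p = 2.88e-05), or 1.21-fold lower. Cnn1, the smooth muscle calponin, lay between 6.25 and 6.46 on all arrays, and 1 parental DMSO array was below the first quartile of its array. Its difference was 0.07 with DMSO (-0.02 to 0.15, adjusted p = 0.287) and 0.03 with RSL (-0.06 to 0.12, adjusted p = 0.589), and all groups overlapped. Cnn2 has an exact CArG match in its printed promoter and Cnn1 has none in its window, and a tie of these matches to the levels was not tested.

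Tpm1, an alpha tropomyosin that runs along the actin filament, changed places between conditions. With DMSO its inducible arrays read 11.47, 11.45 and 11.41, all below the parental arrays at 11.55, 11.54 and 11.49. With RSL the inducible arrays read 11.68, 11.62 and 11.58, all above the parental arrays at 11.42, 11.43 and 11.40. The log2 difference was -0.08 with DMSO (-0.16 to -0.01), which did not pass (adjusted p = 0.0847), and 0.21 with RSL (0.14 to 0.28, adjusted p = 0.000163), a fold of 1.16. Tpm1 stood at the 98.5 to 99 percentile of its arrays.

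Tpm2, the beta tropomyosin, spanned 9.40 to 9.64 with every neighbouring pair of groups overlapping. Its difference was -0.09 with DMSO (-0.19 to 0.01, adjusted p = 0.192) and 0.00 with RSL (-0.11 to 0.10, adjusted p = 0.954). Myl9, the light chain whose phosphorylation turns on smooth muscle and non-muscle myosin, spanned 6.52 to 6.69, at the 34.7 to 42.2 percentile. Its difference was 0.04 with DMSO (-0.05 to 0.13, adjusted p = 0.578) and 0.09 with RSL (0.00 to 0.18, adjusted p = 0.128). Missing the threshold does not show that the lines were equal in these genes, since the intervals reach -0.19 for Tpm2 with DMSO and 0.18 for Myl9 with RSL.

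**Figure D3:**
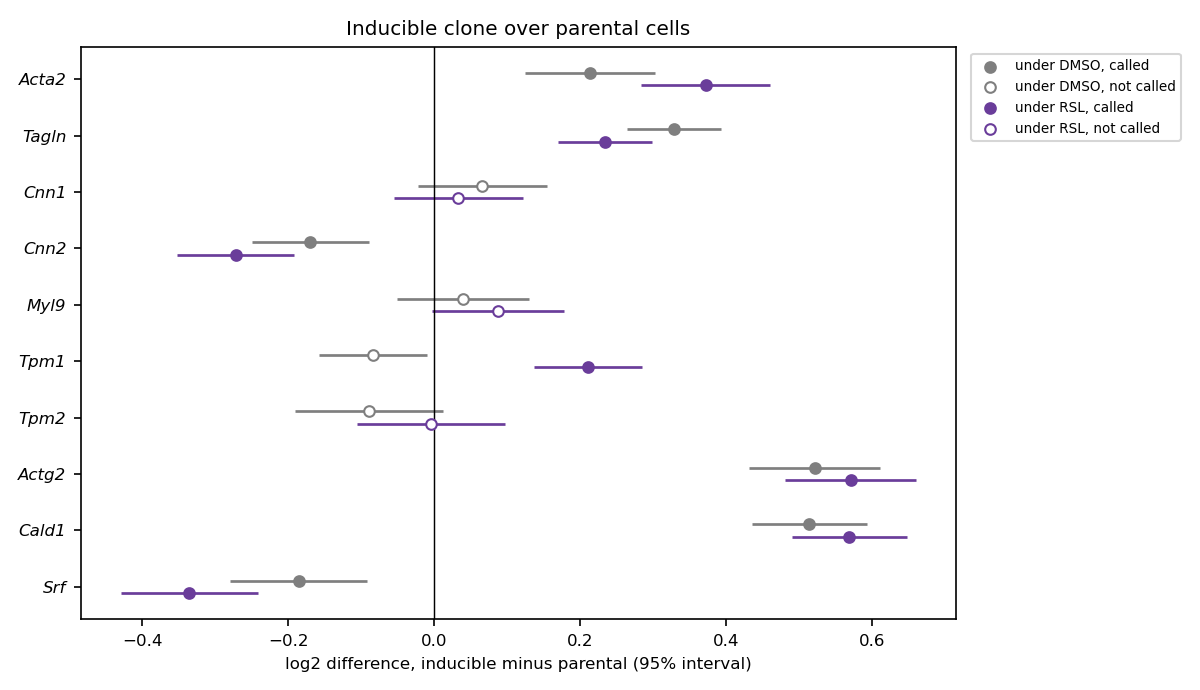
Log2 difference of inducible over parental cells for each contractile gene, with DMSO and with RSL, as the limma estimate with its 95% interval. Actg2 and Cald1 lie farthest to the higher side at 0.52 and 0.51 with DMSO, Srf and Cnn2 lie on the lower side, and Tpm1 is at -0.08 with DMSO and 0.21 with RSL.

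The order of the 4 groups separated the genes further. For Cald1 the order from low to high was parental RSL, parental DMSO, inducible RSL and inducible DMSO, and no neighbours overlapped. For Acta2 it was parental RSL, parental DMSO, inducible DMSO and inducible RSL, and only the inducible groups overlapped. For Tpm1 parental RSL and inducible DMSO overlapped at the bottom, parental DMSO came next and inducible RSL was on top. For Cnn1, Myl9 and Tpm2 no neighbouring groups were apart. The steps of Cald1 within a line did not pass in limma (adjusted p = 0.376 in parental and 0.617 in inducible cells). Its nearest parental DMSO and RSL arrays were only 0.004 apart. Of all probe sets, 13.3% had no overlap between DMSO and RSL arrays in parental cells and 18.1% in inducible cells.

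The ligand was compared with DMSO within each line. In inducible cells, 1 of the 10 passed with RSL against DMSO, which was Tpm1, while 2.54% of all probe sets were called, 1.32% as higher and 1.21% as lower. The 6 Tpm1 arrays did not overlap, and the log2 change was 0.18 (SE 0.035, 95% interval 0.11 to 0.26, adjusted p = 0.00799), a rise of 1.13-fold. Cnn2 and Cald1 were lower with RSL on every array, by log2 values of -0.12 (-0.20 to -0.03, adjusted p = 0.159) and -0.06 (-0.14 to 0.02, adjusted p = 0.617), and did not pass. Arrays of the 2 treatments did not overlap for these 3 genes, beside 18.1% of all probe sets. Acta2 gave 0.10 (0.01 to 0.19, adjusted p = 0.31) and Srf -0.10 (-0.20 to -0.01, adjusted p = 0.335), with overlapping arrays. The other 5 genes lay between -0.03 and 0.05, with adjusted p of 0.787 to 0.939.

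Inducible RSL replicate 1 decided which gene passed. Its Acta2 signal was 10.20 where the other two arrays of its group gave 10.37 and 10.39, and its Tpm1 signal of 11.68 was the highest of its group. Without it, Tpm1 gave 0.15 and no longer passed (adjusted p = 0.0571), whereas Acta2 gave 0.16 and passed (adjusted p = 0.0298). Leaving out any other inducible array kept Tpm1 past the threshold, with adjusted p from 0.00848 to 0.0428.

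In parental cells, for which the design text names no RheoSwitch plasmid, 0 of the 10 genes passed in limma, and 2 did at an unadjusted p under 0.05, Tpm1 and Cald1. Of all probe sets, 0.0303% were called, 0.0243% as higher and 0.00607% as lower. Tpm1 gave -0.11 (-0.19 to -0.04, adjusted p = 0.366) and Cald1 -0.11 (-0.19 to -0.04, adjusted p = 0.376). Arrays did not overlap for 4 genes, Tagln on the higher side and Acta2, Tpm1 and Cald1 on the lower side, beside 13.3% of all probe sets. Tagln gave 0.06 (adjusted p = 0.532), Acta2 -0.06 (adjusted p = 0.664), Srf 0.05 (adjusted p = 0.743) and Cnn2 -0.01 (adjusted p = 0.931).

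Whether the RSL effect differed between the lines was tested as a difference of both effects. Only Tpm1 passed of the 10, at 0.29 (SE 0.0495, 95% interval 0.19 to 0.40, adjusted p = 0.009), while 0.662% of all probe sets did, 0.358% as higher and 0.303% as lower. Its call held when each of the 12 arrays was left out in turn, with adjusted p of 0.00544 to 0.033. Acta2 gave 0.16 (0.03 to 0.28, adjusted p = 0.369), Srf -0.15 (-0.28 to -0.02, adjusted p = 0.465) and Tagln -0.09 (adjusted p = 0.52), none of which passed. Cald1 gave 0.05 (adjusted p = 0.824) and Actg2 0.05 (adjusted p = 0.869). With 3 arrays in a group, an exact permutation test of a single gene cannot go below p = 0.1, so these calls rest on the spread shared over probe sets in limma.

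**Figure D4:**
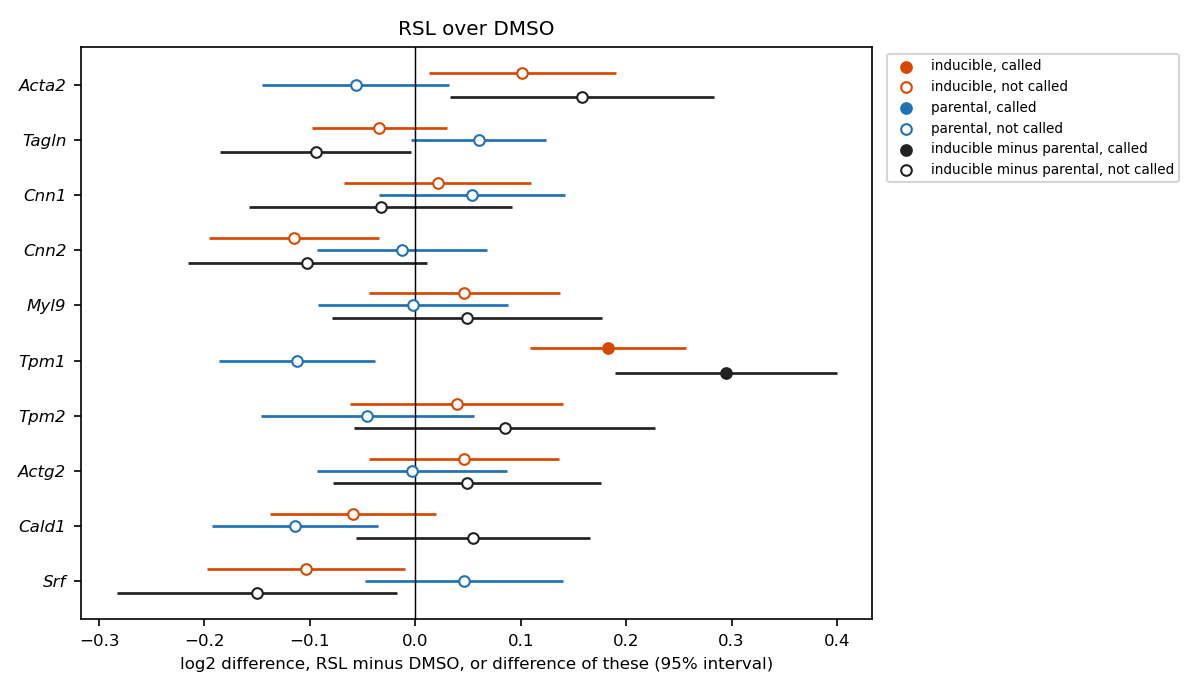
Log2 change with RSL over DMSO for each contractile gene in inducible and in parental cells, and the difference of these changes. Each is the limma estimate with its 95% interval. Tpm1 is at 0.18 in inducible cells and -0.11 in parental cells, and the other genes lie between -0.12 and 0.10 in both. For the difference Tpm1 is at 0.29, and the other genes lie from Srf at -0.15 to Acta2 at 0.16.

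The close relatives of the contractile genes that passed did so on the lower side. Of 4 relatives of calponin, transgelin and tropomyosin with a probe set, 1 was lower in the inducible cells with DMSO and 2 with RSL. These are 25% and 50% of so few genes, beside 29.7% and 34.2% of all probe sets. Tagln2, the transgelin of non-muscle cells, differed by -0.21 with DMSO (adjusted p = 0.000184) and -0.33 with RSL (adjusted p = 1.31e-06), the opposite side from Tagln. Tpm4, a tropomyosin of non-muscle cells, gave -0.02 with DMSO (adjusted p = 0.847) and -0.21 with RSL (adjusted p = 0.000963). In inducible cells Tpm4 fell by 0.24 with RSL (adjusted p = 0.00553), while Tpm1 rose. The difference of RSL effects did not pass for Tpm4 (-0.20, adjusted p = 0.227). Tagln2 also fell by 0.16 with RSL (adjusted p = 0.0229). Tpm4 and Tagln2 make 50% of the 4, beside 2.54% of all probe sets. Each inducible array left out in turn left 1 of these 2 relatives past the threshold.

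Other genes of the contractile apparatus were split as well. Of 27 measured, 4 were higher and 7 lower in inducible cells with DMSO, and 4 were higher and 9 lower with RSL. The median log2 difference was -0.01 and -0.04. The shares called were 40.7% and 48.1%, beside 29.7% and 34.2% of all probe sets. Among probe sets above the lowest 40% by mean they were 44.5% and 49%. Pdlim7, an actin-associated PDZ and LIM protein, was higher by 0.42 with DMSO (adjusted p = 8.96e-08). Csrp1, a LIM protein of smooth muscle, was higher by 0.36 (adjusted p = 6.64e-06), and its relative Csrp2 was lower (-0.47, adjusted p = 2.85e-07). Zyx, which encodes the focal adhesion protein zyxin, was higher by 0.31 with DMSO (adjusted p = 7.02e-05) and gave 0.05 with RSL (adjusted p = 0.41). With RSL in inducible cells 1 of the 27 passed (3.7%, beside 2.54% of all probe sets). It was Actn1, an alpha-actinin that cross-links actin (-0.14, adjusted p = 0.0296). Actn1 did not pass when any of 5 of the 6 inducible arrays was left out.

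Of 13 coactivators and upstream regulators of SRF, 1 was higher and 1 lower in inducible cells with DMSO (15.4%, beside 29.7% of all probe sets), and 4 were lower with RSL (30.8%, beside 34.2%). Pxn, the focal adhesion adaptor paxillin, was the higher one (0.22, adjusted p = 8.84e-05). Elk3, a ternary complex factor, was the lower one (-0.27, adjusted p = 6e-05), and gave -0.37 with RSL (adjusted p = 1.36e-06), the same side as Srf. With RSL in inducible cells Pxn fell by 0.20 (adjusted p = 0.00369) and Elk3 fell by 0.18 (adjusted p = 0.0191), which makes 15.4% of the 13, beside 2.54% of all probe sets. Only 1 of the 2 passed when any of 3 inducible arrays (DMSO replicate 1, DMSO replicate 2, RSL replicate 3) was left out.

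Targets of SRF outside the contractile set were counted in 2 lists. Of 18 targets of the myocardin-related route, 6 were higher and 4 lower in inducible cells with DMSO (55.6%, beside 29.7% of all probe sets). With RSL 5 were higher and 6 lower (61.1%, beside 34.2%). Of probe sets above the lowest 40% by mean, 44.5% were called with DMSO and 49% with RSL. Thbs1, a matrix protein that activates TGF-beta, was higher by 2.65 (adjusted p = 9.6e-14), and Ccn1, a matricellular integrin ligand, by 1.40 (adjusted p = 4.74e-10). With RSL in inducible cells Ccn2, the CTGF of fibrosis, rose by 0.52 (adjusted p = 3.71e-05), and in parental cells Ccn1 rose by 0.60 (adjusted p = 0.00944). Of the 18, 2 rose and 2 fell in inducible cells (22.2%, beside 2.54% of all probe sets). In all 2 passed without DMSO replicate 2, RSL replicate 1 or RSL replicate 2 of those cells.

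Of 10 immediate-early targets, 7 were higher and none lower in inducible cells with DMSO, at a median of 0.26. With RSL 2 were higher and 4 lower, at a median of -0.10. The shares called were 70% and 60%, beside 29.7% and 34.2% of all probe sets. Among probe sets above the lowest 40% by mean they were 44.5% and 49%. In inducible cells 6 fell with RSL and none rose, Ier2 being among the 6, and 5 had a lower RSL effect than in parental cells. These are 60% and 50% of the 10, beside 2.54% and 0.662% of all probe sets. Egr1, a zinc finger factor, was higher by 1.76 in inducible DMSO cells (adjusted p = 9.68e-08) and fell by 1.18 with RSL (adjusted p = 0.000198). Nr4a1, a nuclear receptor, was higher by 0.62 with DMSO (adjusted p = 3.1e-07). Srf, whose own promoter holds CArG matches, was lower in the inducible cells with DMSO. Binding and activity of SRF were not measured.

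Among 15 matrix and surface genes of myofibroblasts, 9 were higher and 3 lower in inducible cells with DMSO, and the counts were equal with RSL. That is 80% in both, beside 29.7% of all probe sets with DMSO and 34.2% with RSL. Of probe sets above the lowest 40% by mean, 44.5% were called with DMSO and 49% with RSL. Tnc, the tenascin of wounds, was higher by 1.59 (adjusted p = 1.19e-12), Col1a1, a chain of type I collagen, by 0.73 (adjusted p = 1.23e-07) and Lox, which cross-links collagen, by 0.32 (adjusted p = 5.62e-07). None of the 15 passed with RSL in either line, beside 2.54% of all probe sets in inducible and 0.0303% in parental cells. Of 11 genes of the TGF-beta input, 2 were higher and 5 lower with DMSO (63.6%, beside 29.7% of all probe sets). Ltbp2 and Ltbp1, latent TGF-beta binding proteins, were lower, at -1.05 (adjusted p = 3.98e-13) and -0.70 (adjusted p = 3.82e-09), and so was Tgfb3, a ligand, at -0.39 (adjusted p = 4.58e-07). With RSL in both lines 2 of the 11 were higher and 7 lower in inducible cells (81.8%, beside 34.2%). Against DMSO, 1 rose and 2 fell with RSL in inducible cells (27.3%, beside 2.54%), and 0 passed in parental cells. Several genes stand on more than one of these lists, so their counts are not independent.

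**Figure D5:**
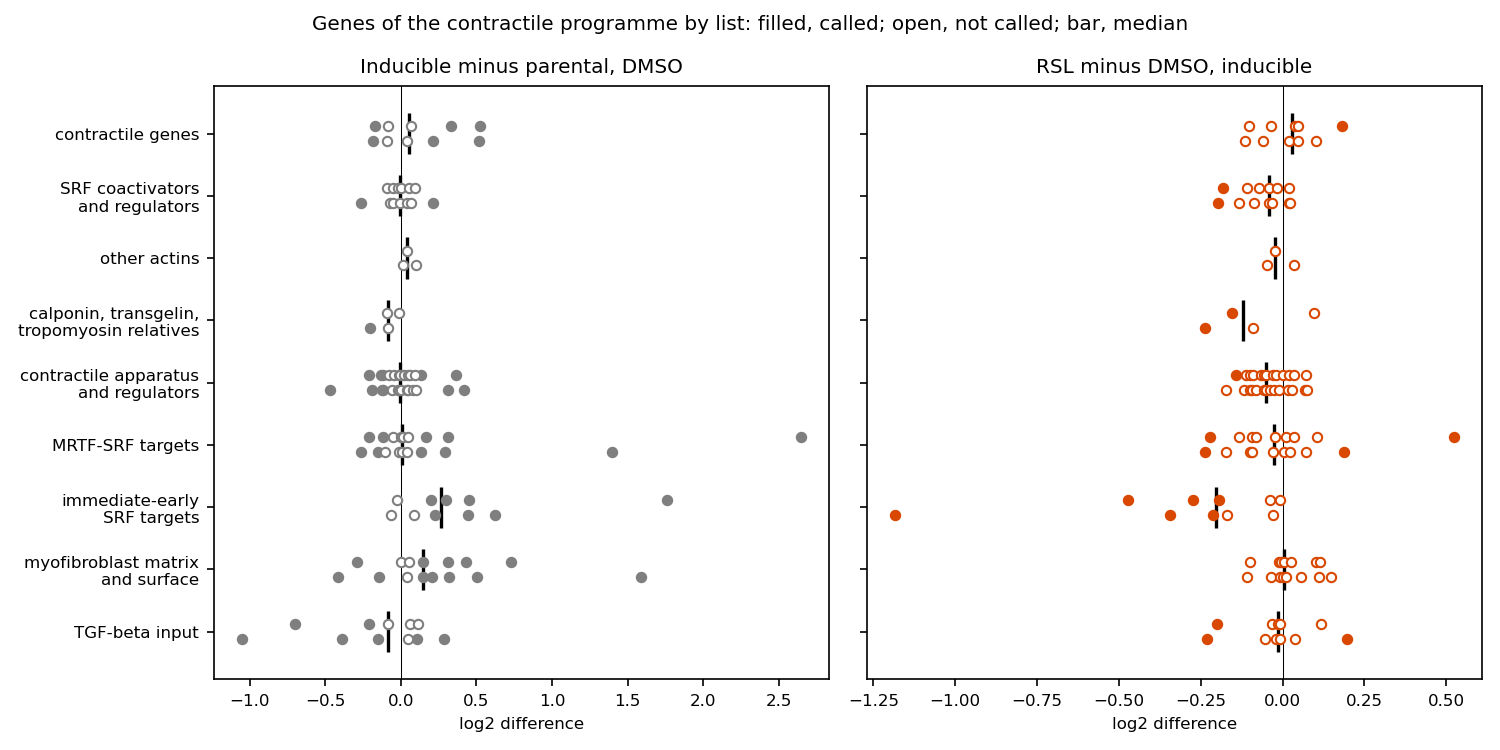
Log2 difference of each gene in the contractile set and in the lists of related genes, with a bar at the median of each list. The 2 panels show inducible over parental cells with DMSO and RSL over DMSO in inducible cells. Filled points are genes called at an adjusted p under 0.05 in limma, and open points are not called. In inducible over parental cells with DMSO the contractile set has 4 higher and 2 lower, the immediate-early targets 7 higher and none lower, and the other actins none.

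Markers of other cells moved with the clone in places. Of 9 smooth muscle markers, 1 was higher and 1 lower with DMSO, with Itga8, an integrin chain, lower at -0.78 (adjusted p = 2.52e-10) and the calsequestrin Casq2 higher by 0.13 (adjusted p = 0.00703). The summed level of the list, as log2, was 9.96 to 10.00 in parental and 9.91 to 9.94 in inducible DMSO arrays. Without Itga8, a sum added after the values were seen, the other 8 markers gave 9.76 to 9.82 in parental and 9.80 to 9.83 in inducible DMSO arrays, which overlap. Of 11 fibroblast markers, 5 were higher and 3 lower, with sums of 15.04 to 15.05 in parental and 15.00 to 15.11 in inducible DMSO arrays. Macrophage sums were 10.125 to 10.17 in parental and 10.04 to 10.11 in inducible DMSO arrays. In the same order, endothelial sums were 9.07 to 9.15 and 9.17 to 9.21. Skeletal and cardiac sums were 9.77 to 9.80 and 9.73 to 9.75. For the macrophage, endothelial and skeletal and cardiac lists the lines did not overlap. For fibroblast, epithelial and fat cell markers they did. Of 8 macrophage markers, 1 was higher and 2 lower, of 8 epithelial markers 2 were higher and of 8 endothelial markers 1 was higher and 1 lower. The endothelial marker called higher was Tie1, with group means of 6.03 in parental and 6.76 in inducible DMSO cells. That called lower was Vwf, with 5.89 and 5.80. An endothelial sum without Tie1 was not made. Of 10 skeletal and cardiac markers 1 was lower and of 6 fat cell markers 1 was higher. The shares called were 22.2% of smooth muscle, 72.7% of fibroblast, 37.5% of macrophage and 25% of epithelial markers. They were 25% of endothelial, 10% of skeletal and cardiac and 16.7% of fat cell markers, beside 29.7% of all probe sets. Of probe sets above the lowest 40% by mean, 44.5% were called. Leaving out any 1 of 5 of the 6 DMSO arrays (all but parental replicate 3) took the endothelial count from 2 to 1, and without parental DMSO replicate 2 the skeletal and cardiac count was 2. Under the other settings at an adjusted p, these counts ran from 0 to 2 for smooth muscle, 2 to 3 for macrophage, 0 to 3 for epithelial, 0 to 1 for endothelial, 1 to 4 for skeletal and cardiac and 0 to 1 for fat cell markers. Below the first quartile on all arrays were 2 macrophage markers (Ptprc, Itgam), 4 epithelial (Epcam, Cdh1, Krt8, Esrp1), 5 endothelial (Pecam1, Cdh5, Tek, Vwf, Emcn), 3 skeletal and cardiac (Tnnt3, Myh3, Ttn) and 1 fat cell marker (Adipoq). Of the macrophage markers, 2 were above the array median on all arrays, Csf1r, with group means of 7.29 to 7.53, and Cd14, with group means of 8.74 to 9.03. With RSL in inducible cells, where Tpm1 rose, 1 smooth muscle marker (Casq2, 0.15, adjusted p = 0.025) and 2 fat cell markers rose. These are 11.1% and 33.3% of their lists, beside 2.54% of all probe sets. The summed fat cell level was 9.03 to 9.10 with RSL and 8.93 to 8.99 with DMSO. The smooth muscle call was lost without inducible DMSO replicate 2 or 3 or RSL replicate 2 or 3, and the fat cell count was 1 when any inducible array but DMSO replicate 3 was left out. The part of other cells in the contractile results was not tested.

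Across the 12 arrays, Acta2 ran with Actg2 (r = 0.93), Cald1 (r = 0.90) and Tagln (r = 0.87), and against Cnn2 (r = -0.89) and Srf (r = -0.87). Tpm1 was less alike (r = 0.50), and so were Myl9 (r = 0.50), Cnn1 (r = 0.42) and Tpm2 (r = -0.31). The arrays fall into 2 lines, so these values mainly restate the difference between the lines. Among 569 named genes whose SD over arrays was at least 0.2, the patterns most like that of Acta2 were those of 1700052K11Rik (r = 0.963), Inka1 (r = 0.962), Irgm1 (r = 0.961), Ccl9 (r = 0.957) and Tmem120b (r = 0.956). Lhx6 (r = -0.967) and Slc6a8 (r = -0.961) ran most against it. Inka1 read 7.68 and 7.70 in parental DMSO and RSL cells and 8.10 and 8.22 in inducible DMSO and RSL cells as group means, the same order of lines as Acta2.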

How the data were processed

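RNA of inducible and parental NIH 3T3 cells, with DMSO or RSL, was hybridized to 12 Affymetrix mouse arrays, 3 per group; the labels call them biological replicates but name no separate cultures, so a p-value here reflects only how far these samples scatter, possibly for technical reasons. The authors deposited log2 values after RMA background correction and quantile normalization, with probes regrouped by Entrez gene; how probes were summarized was not stated in the sources read, and a log2 base was assumed from the range. Quantile normalization gives every array nearly the same distribution, so a shift of most genes would not be seen. Arrays have no read depth, and their number limits the precision. The values table has 16539 probe sets; 64 hybridization controls were left out and 16475 tested, of which 15780 carry 1 symbol of the GEO platform annotation and 695 none.

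Group means were fitted in limma 3.58.1 (R 4.3.3) over all 12 arrays with no block and eBayes, 8 residual degrees of freedom, and 5 contrasts. Two-sided p-values were adjusted by Benjamini-Hochberg over all tested probe sets and called under 0.05. Overlap of groups compares the lowest and highest arrays. The fit was tested on simulated data. Contractile genes and the 15 lists beside them were chosen with earlier results of these data known. Of each list, the genes open to naming were the 3 of smallest p in inducible over parental cells with DMSO, the 2 of smallest p with RSL in inducible cells and the 1 in parental cells, with all close relatives. Markers named for a level below the first quartile, and genes named for the difference of RSL effects, were chosen after their values were seen. Each result was repeated with the replicate number as a block, without the lowest 40% of probe sets, with an intensity trend, array weights, median centring, a repeated quantile step, the arrays compared alone, nominal p, the one-way analysis named in the methods and each array left out. No dates or scan batches were given for the arrays.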

Additional observations from a re-analysis of the deposited data

Results flagged for a closer look

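The effect of RSL differed between the inducible and the parental cells, by the limma test of the difference (inducible minus parental, log2), for 1 contractile gene and for 8 genes of the lists beside them, where 0.662% of all probe sets were called. Tpm1 differed by 0.29 (SE 0.0495, adjusted p = 0.009), with 0.18 in inducible and -0.11 in parental cells. Irgm1 differed by 0.29 and Ccl9 by 0.22, but both were picked for a pattern like that of Acta2 over the same 12 arrays, so these values are a description and no test is given. Tgfb3 differed by 0.24 (adjusted p = 0.0405), from 0.12 in inducible and -0.13 in parental cells, neither of which passed alone. Pxn differed by -0.22 (adjusted p = 0.0371). Ccn1 differed by -0.69 (adjusted p = 0.00488), having risen in parental cells by 0.60. Among immediate-early targets, Egr1 differed by -1.97 (SE 0.204, adjusted p = 0.000262) and Ier2 by -0.64 (adjusted p = 0.000262). Egr2 (-0.53, adjusted p = 0.0124), Fosl1 (-0.33, adjusted p = 0.00649) and Mcl1 (-0.22, adjusted p = 0.047) of the same list also differed, and are named because of this test, after their values were seen. Egr2 was dim, and all 3 parental DMSO arrays and all 3 inducible RSL arrays were below the first quartile. The count of 5 immediate-early genes ran from 4 to 5 with arrays left out. Under the other settings at an adjusted p it ran from 4 to 7. Both calls of Pxn and Tgfb3 were lost with a replicate block. Leaving out 1 array also lost them, except that Pxn kept its call without inducible DMSO replicate 3 or parental RSL replicate 2, and Tgfb3 without inducible RSL replicate 3, parental DMSO replicate 3 or parental RSL replicate 3. Groups of 3 arrays are too small for a check on outlying arrays.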

How the results depend on the processing

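The counts of contractile genes called in the comparisons of inducible with parental cells stayed at 6 with DMSO and 7 with RSL under each array left out, and within 1.5 times of that under all other alternatives. With RSL against DMSO in inducible cells the count of 1 became 3 under the one-way analysis of the methods at a nominal p and 4 at a nominal p in limma. In parental cells the count of 0 became 3 and 2, and for the difference of effects the count of 1 became 3 and 4. With each array left out these 3 counts stayed at 1, 0 and 1, though without inducible RSL replicate 1 the gene called was Acta2 in place of Tpm1.

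Of the single-gene values under alternatives that kept all arrays, 409 kept direction and side of the threshold, 18 came to pass it and 3 turned direction, none of them called. Tpm2 in inducible over parental cells with RSL gave 0.00979 and Myl9 with RSL in parental cells 0.0165 under array weights. Cnn2 with RSL in parental cells gave 0.0181 with the quantile step repeated. Of the 18, only Cnn1 in inducible over parental cells with DMSO passed at an adjusted p, under array weights (0.11, adjusted p = 0.0109). The others passed only where an unadjusted p was set against 0.05. With arrays left out, uncalled values crossed 0 for Tpm2 in inducible over parental cells with RSL (-0.0351 to 0.0341), with RSL in inducible cells for Cnn1 (-0.00436 to 0.0476) and Tpm2 (-0.0015 to 0.0794), with RSL in parental cells for Cnn2 (-0.0405 to 0.0196), Myl9 (-0.0238 to 0.0372) and Actg2 (-0.0321 to 0.0443), and for the difference of effects for Cnn1 (-0.0746 to 0.00695).

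The replicate numbers did not pair the arrays: correlations of same-numbered deviations ran from -0.296 to 0.214, with at most 1 pair over 0.1 in a comparison. A replicate block changed no call among the contractile genes (counts of 6, 7, 1, 0 and 1) and took the counts over all probe sets from 4885 to 4604, 5638 to 5314, 418 to 330, 5 to 4 and 109 to 76. The fit on the arrays compared alone cannot be made for the difference of effects, which needs all 4 groups.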
